A study of Mus musculus with 12 samples.

Results

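Matrix metalloproteinases (MMPs), the related ADAM and ADAMTS proteases, the protease-free ADAMTS-like proteins and the tissue inhibitors of metalloproteinases (TIMPs) were followed through development of the mouse retinal pigment epithelium (RPE). Members were all genes of the deposited table whose symbol begins with Mmp, Adam, Adamts, Adamtsl or Timp followed by a digit, which gave 49 of 13942 genes. Of these, 48 were tested, against 13523 of all genes. The remaining member, Timp4, lay at the lowest value of the table in 11 of 12 libraries.

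The study sequenced polyadenylated RNA of RPE, the pigmented layer behind the retina, from C57BL/6J mice of 2 genotypes at 2 ages, with 3 libraries in each of 4 groups: wild type (WT) at the embryonic stage E15.5, Sox9 conditional knockout (cKO) at E15.5, WT at P5, after birth, and cKO at P5. The design sets the genotypes against each other before and after birth, and Sox9 encodes a transcription factor of the RPE. Neither the Cre line, the deleted exons and the way RPE was isolated, nor whether replicates came from different animals, is given in the sources used here, so p-values measure only the spread between these samples. All groups share strain and tissue label, and no other allele or treatment is named.

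MMPs cut collagens and other components of the extracellular matrix, ADAMs act at the cell surface and release the outer parts of membrane proteins, and ADAMTS proteases are secreted enzymes that cut proteoglycans, process procollagens or act on fibrillin microfibrils. TIMPs block the active site of these enzymes. The RPE rests on Bruch's membrane, a thin sheet of matrix in which TIMP3 accumulates and which is thickened in Sorsby fundus dystrophy, a disease caused by mutations of TIMP3.

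Values are gene counts that the authors quantile-normalised, so that every library has the same distribution with a median of 367.4 and a floor of 50. The depth behind them is unknown. Counts of the targeted gene did not follow the label. Sox9 stood at 1156, 1060 and 932 in WT and 1034, 990.0 and 1006 in cKO at E15.5, where the libraries overlapped. At P5 it stood at 964, 1500 and 1111 in WT but 2136, 2384 and 2928 in cKO, and all cKO libraries were above all WT libraries. Since the deleted exons are not given, these counts do not show whether the gene was deleted. The cKO groups are therefore written "labelled cKO", and each direction between genotypes rests on that label. RPE markers were checked by 17 of 18 listed genes. The pigment genes Dct, Tyrp1 and Pmel lay above the median in all libraries, but Slc45a2, of the same list, lay below it at E15.5 (215 to 356). The visual cycle genes Rpe65 and Lrat and the channel gene Kcnj13 lay at the floor in all E15.5 libraries, and Rpe65 also in all P5 libraries labelled cKO. At E15.5, Rrh stood at 129 to 214 in WT and at the floor in labelled cKO. Slc16a8 stood there at 212 to 315 in WT and 50 to 60.4 in labelled cKO. No RPE marker had an adjusted p under 0.05 (limma) between genotypes at E15.5. Other cells were present by their markers. No marker of the mesenchyme list (19 genes) or of the endothelium list (18 genes) lay at the floor throughout any group. The mean log2 value of the 25 photoreceptor markers was 6.01 to 6.06 at E15.5 and ran from 7.31 to 11.52 in WT and from 7.33 to 10.74 in labelled cKO at P5. In such tissue samples, fewer cells of a type and less RNA per cell cannot be told apart.

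Per kilobase of exon, the same 3 genes led the family in all 4 groups. They were Mmp2 (gelatinase A, which cuts type IV collagen), Timp2 and Mmp14 (MT1-MMP, the membrane protease that activates pro-MMP2 with the help of TIMP2). At E15.5 in WT, Mmp2 stood at 1700 ± 225, Timp2 at 1534 ± 178 and Mmp14 at 925 ± 142 normalised counts per kilobase (SD, n = 3), and Adam10, the sheddase of Notch receptors and of the amyloid precursor protein, followed at 424 ± 38.2 (SD, n = 3). The levels of Mmp2 and Timp2 differed there by less than their SDs. At P5 in WT, Timp2 was first with 2488 ± 905, before Mmp2 with 1368 ± 668 and Mmp14 with 1081 ± 429 (SD, n = 3), and the last of these differed from Mmp2 by less than their SDs. Timp3 was the 12th member at E15.5 in both genotypes, with 138 ± 23.0 per kilobase in WT, and the 4th at P5 in both, with 557 ± 381 in WT and 474 ± 241 in labelled cKO (SD, n = 3). Its P5 level lay within 1 SD of that of Adam10, the next in order, at 424 ± 93.5 in WT (SD, n = 3).

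Age separated the members. From E15.5 to P5, 11 of 48 members rose and 12 fell in WT (limma, adjusted p under 0.05), against 15% of all 13523 genes that rose and 23.2% that fell. In labelled cKO, 11 rose and 13 fell, against 17.6% and 26.1% of all genes. As a share, 47.9% of members were called in WT and 50% in labelled cKO, where the background in either direction was 38.2% and 43.7%. The WT and labelled cKO comparisons set different libraries against each other but share 1 estimate of the spread per gene, so they are not independent tests. Of the members, 10 rose in both, 12 fell in both, 3 were called in 1 genotype only (Mmp28 higher in WT, Adamts10 higher and Adamts12 lower in labelled cKO), and 23 in neither. The share of all genes called in both genotypes is not given here. For each called member but Adamts12 the libraries of the ages did not overlap, with an exact permutation p of 0.1, the smallest that 3 libraries against 3 allow. Such separation is likely for any called gene and adds no separate evidence, and its share over all genes is not given here. The median log2 fold change of the members was 0.00 in WT and -0.26 in labelled cKO, against -0.07 and -0.08 over all genes. Of the 12 falls in WT, 7 were among the ADAMTS proteases. By class these were 2 of 7 proteoglycanases (28.6%), 1 of 3 procollagen N-proteinases (33.3%) and 4 of 8 other ADAMTS (50%), against 23.2% of all genes. Without the P5 library of highest mesenchyme signal in each genotype, an alternative chosen after seeing the data, 11 rose and 21 fell in WT and 9 rose and 22 fell in labelled cKO. Without the P5 library of highest photoreceptor signal, 16 rose and 12 fell in WT. With the mesenchyme marker level as a term, also added after seeing the data, 18 rose and 13 fell in WT and 19 rose and 16 fell in labelled cKO. The calls over all 13523 genes moved too, from 5171 in WT and 5905 in labelled cKO in the main fit. They were 5558 and 6737 without the libraries of highest mesenchyme signal, and 6925 and 7401 with the mesenchyme term. Without the libraries of highest photoreceptor signal, 7059 genes were called in WT.

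**Figure D1:**
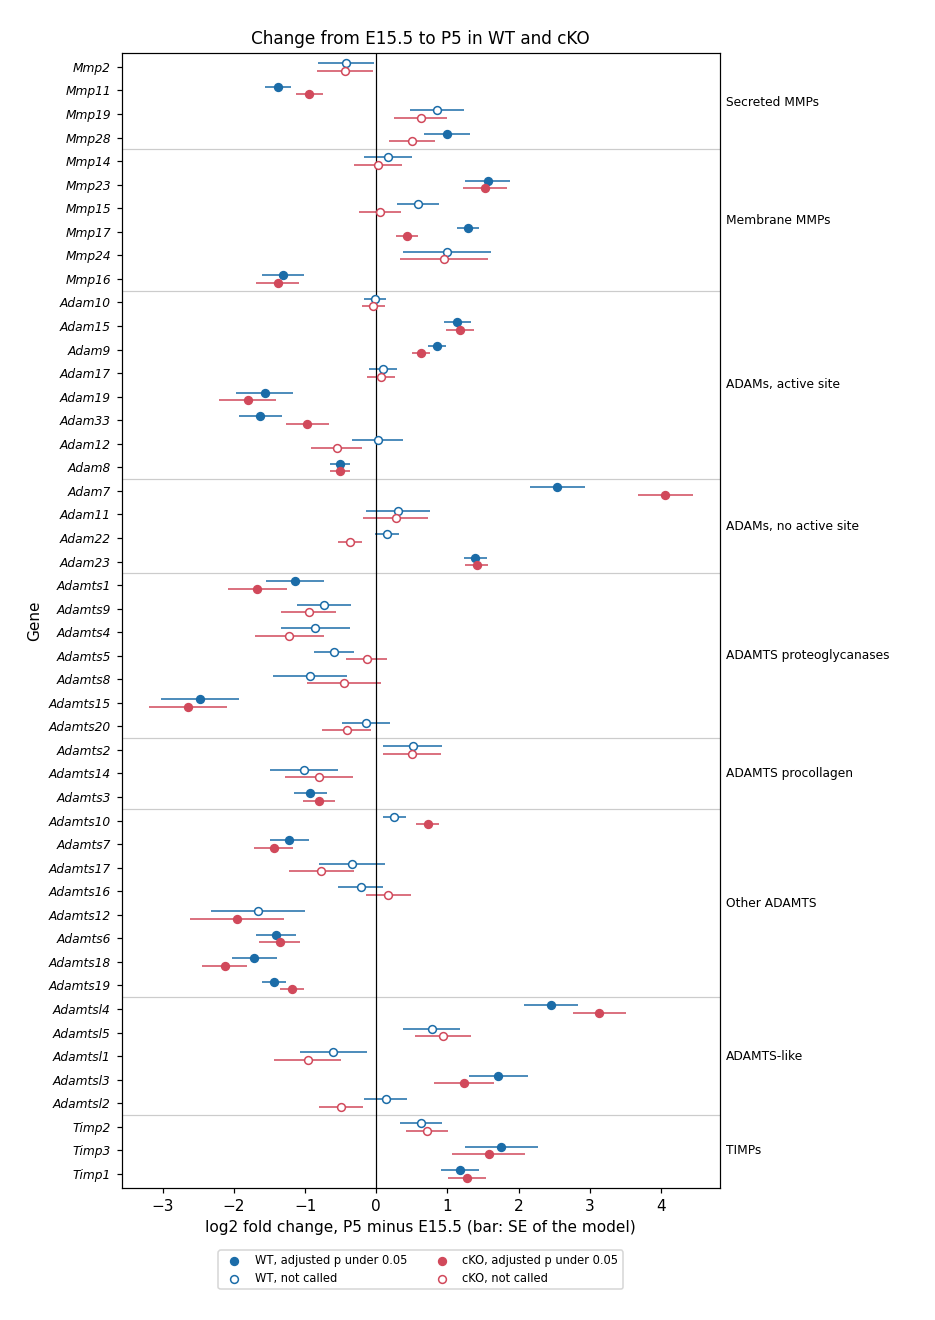
Log2 fold change from E15.5 to P5 (horizontal axis) of the 48 tested members, grouped by role; points are the limma estimates in WT and in labelled cKO, filled where the adjusted p was under 0.05, and bars are the SE of the model. Adam7, Adamtsl4 and Timp3 lie far to the right and Adamts15 and Adamts18 far to the left in both genotypes.

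Of the inhibitors, Timp1 and Timp3 rose with age in both genotypes. Timp3 (ENSMUSG00000020044, chromosome 10, 86300372 to 86349506, GRCm38) stood at 1315, 1115 and 941 in WT at E15.5 and at 7825, 4112 and 1663 in WT at P5. The libraries labelled cKO held 951, 1182 and 1419 at E15.5 and 5848, 1927 and 3796 at P5. Every P5 library was above every E15.5 library of its genotype, and WT replicate 1 was the highest library of all. The mean rose 4.04-fold in WT (log2 fold change 1.76 ± 0.51 SE, adjusted p = 0.0202) and 3.26-fold in labelled cKO (1.58 ± 0.51 SE, adjusted p = 0.0284). The call was lost in WT without P5 replicate 1 (1.23, adjusted p = 0.0621), P5 replicate 2, E15.5 replicate 2 or E15.5 replicate 3, and in labelled cKO without P5 replicate 1 (1.21, adjusted p = 0.0921), P5 replicate 3 or any 1 of the E15.5 replicates. The exons of Timp3 share 1733 bases with Syn3 on the other strand, and since the strand setting of the counting is not given, reads of the pair cannot be told apart.

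Timp1, a soluble inhibitor of many MMPs, stood at 134, 166 and 147 in WT at E15.5 and at 384, 389 and 257 at P5, with no overlap. The P5 mean was 2.30-fold higher (log2 fold change 1.18 ± 0.27 SE, adjusted p = 0.0063). The libraries labelled cKO went from 145, 115 and 139.0 to 508, 273 and 242, a 2.56-fold higher mean (1.28 ± 0.27 SE, adjusted p = 0.0035). Timp2, which both inhibits MMPs and takes part in the activation of pro-MMP2, stood at 6744, 5777 and 5404 in WT at E15.5 and at 12871, 10313 and 5899 at P5. The highest libraries were of P5, but WT replicate 3 at P5 lay within the E15.5 range. The libraries labelled cKO went from 5278, 5359 and 6946 to 13135, 6784 and 9755, also with overlap. Its log2 fold change was 0.63 ± 0.30 SE in WT (adjusted p = 0.116) and 0.72 ± 0.30 SE in labelled cKO (adjusted p = 0.0728), and neither was called. Timp4 was above the floor in 1 library only, WT replicate 2 at P5, with 98.5.

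Among the 5 members of the ADAMTS-like class, which resemble ADAMTS proteases but lack the protease domain, 2 rose with age in both genotypes and none fell. Thsd4, an ADAMTS-like protein that the symbol rule leaves out, fell in both genotypes and is given with the other genes of the pathway. Adamtsl4 (ENSMUSG00000015850, chromosome 3, 95676201 to 95687917), which binds fibrillin microfibrils and is mutated in human ectopia lentis, stood at 180, 148 and 87.2 in WT at E15.5 and at 1065, 953 and 384 at P5. With the label cKO it stood at 93.9, 130 and 144 at E15.5 and at 1078, 1125 and 1012 at P5. All P5 libraries were above all E15.5 libraries, and WT replicate 3 was the lowest at both ages. The mean was 5.79-fold higher at P5 in WT (log2 fold change 2.46 ± 0.37 SE, adjusted p = 0.000625) and 8.73-fold higher in labelled cKO (3.14 ± 0.37 SE, adjusted p = 0.000127). Adamtsl3 was at or near the floor at E15.5 (51.3, 50 and 50 in WT, 50 in all labelled cKO libraries) and stood at 231, 208 and 98.3 in WT and 245, 69.8 and 97.5 in labelled cKO at P5. It rose in both genotypes, 3.55-fold in WT (1.72 ± 0.42 SE, adjusted p = 0.00863) and at least 2.75-fold in labelled cKO (adjusted p = 0.0349). Adamtsl1, Adamtsl2 and Adamtsl5 were not called, with log2 fold changes of -0.61, 0.13 and 0.78 in WT.

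Adamtsl4 and Adamts18 are the members of largest change in opposite directions among those with an entry in the promoter table, and the 250 bases before their RefSeq start sites (GRCm38.p6) are shown to set them side by side. Capitals mark the GC box GGGCGG or its complement CCGCCC. The Adamtsl4 window is chr3:95687918-95688167 on the minus strand, with 64.4% GC, and the Adamts18 window is chr8:113848840-113849089 on the minus strand, with 65.2% GC.
Adamtsl4: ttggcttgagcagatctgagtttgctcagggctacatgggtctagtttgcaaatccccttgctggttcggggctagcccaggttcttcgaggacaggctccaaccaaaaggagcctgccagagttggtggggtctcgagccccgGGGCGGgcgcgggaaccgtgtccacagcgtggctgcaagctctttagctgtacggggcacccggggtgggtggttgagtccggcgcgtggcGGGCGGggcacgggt
Adamts18: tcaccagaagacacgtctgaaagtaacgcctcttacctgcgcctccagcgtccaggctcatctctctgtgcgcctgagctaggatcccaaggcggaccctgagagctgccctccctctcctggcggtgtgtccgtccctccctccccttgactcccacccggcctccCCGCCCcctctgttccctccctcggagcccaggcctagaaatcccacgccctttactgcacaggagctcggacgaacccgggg
The riser holds 2 GC boxes and the faller 1. Across the family, promoters matched for 30 of the 49 members, 33 promoters in all. On either strand, GGGCGG occurred in 23 of the 33 (69.7%) and in 32.7% of all 32851 promoters of the same length, where the median GC content was 64.4% and 52.4%. The SOX core AACAAT occurred in 1 of the 33, that of Timp1, and in 9.42% of all promoters. The AP-1 site TGACTCA occurred in 1, that of Adam19, against 4.46%, and the E-box CACGTG occurred in 3 (Adam10, Adam19 and Adamts17), against 6.02%. No motif searched overlaps another in its letters, and a match is only a description of these letters in this window.

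Of the 6 membrane MMPs, 2 rose and 1 fell with age in both genotypes. Mmp23 stood at 219, 211 and 189.8 in WT at E15.5 and at 838, 592 and 459 at P5. The libraries did not overlap, and the mean was 3.05-fold higher (log2 fold change 1.56 ± 0.32 SE, adjusted p = 0.00318). In labelled cKO Mmp23 went from 227, 181 and 237 to 1083, 463 and 473 (1.53 ± 0.32 SE, adjusted p = 0.0031). Mmp17 (MT4-MMP, held in the membrane by a glycolipid anchor) rose 2.47-fold in WT (log2 fold change 1.29 ± 0.15 SE, adjusted p = 0.000132) and 1.34-fold in labelled cKO (0.43 ± 0.15 SE, adjusted p = 0.0372), and its values follow with the genotypes. The labelled cKO call held in 9 of 21 alternatives, with an adjusted p of 0.0207 to 0.141. It was lost with the replicate block (adjusted p = 0.0586), with library weights (0.138), with the 6 libraries of that genotype alone (0.0638) and without the P5 library of highest mesenchyme signal in each genotype (0.0719). Leaving out any 1 of the 3 P5 libraries labelled cKO, the 3 E15.5 WT libraries, or replicates 1 and 2 of the E15.5 libraries labelled cKO also lost it (0.0518 to 0.141). Mmp16 (MT3-MMP) fell 2.40-fold in WT (log2 fold change -1.31 ± 0.30 SE, adjusted p = 0.00596) and 2.55-fold in labelled cKO (-1.39 ± 0.30 SE, adjusted p = 0.00371). Mmp14, the most abundant of the class per kilobase, stood at 6262, 5680 and 4591 in WT at E15.5 and at 9217, 5927 and 4179 at P5. These ranges overlap, and its log2 fold change of 0.16 ± 0.34 SE was not called (adjusted p = 0.728). In labelled cKO Mmp14 stood at 5178, 5132 and 6262 at E15.5 and at 9440, 3852 and 4831 at P5 (0.03 ± 0.34 SE, adjusted p = 0.958).

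Among the 4 secreted MMPs, Mmp11 (stromelysin-3) fell in both genotypes. It stood at 1108, 1098 and 1065 in WT at E15.5 and at 508, 492 and 291 at P5, without overlap. Its mean fell 2.53-fold in WT (log2 fold change -1.38 ± 0.19 SE, adjusted p = 0.000308) and 1.92-fold in labelled cKO (-0.94 ± 0.19 SE, adjusted p = 0.00246). Mmp11 shares 155 exon bases with Chchd10 on the other strand. Mmp2 stood at 6603, 5338 and 5248 in WT at E15.5 and at 7032, 4229 and 2576 at P5, so that its P5 values lay both above and below the earlier ones. The same held in labelled cKO, with 5310, 5738 and 6784 at E15.5 and 7901, 2796 and 3718 at P5. Its log2 fold change was -0.42 ± 0.39 SE in WT (adjusted p = 0.415) and -0.44 ± 0.39 SE in labelled cKO (adjusted p = 0.385). Mmp28 rose in WT, from a mean of 51.4 to 109 (2.12-fold, adjusted p = 0.0314), and was not called in labelled cKO (0.50 ± 0.32 SE, adjusted p = 0.232). Mmp19 went from 50.9 to 101 in WT without a call. Other gelatinases, collagenases and stromelysins are not analysed here.

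ADAMs were sorted into 8 with and 4 without a working metalloproteinase site, from textbook knowledge. Of the former, Adam9 and Adam15 rose and Adam8, Adam19 and Adam33 fell in both genotypes. Adam15, a surface protease also present on endothelium, rose 2.28-fold in each genotype (log2 fold change 1.14 ± 0.20 SE in WT, adjusted p = 0.00125, and 1.18 ± 0.20 SE in labelled cKO, adjusted p = 0.000874); it shares 1263 exon bases with an antisense gene. Adam19, a sheddase of neuregulin, stood at 1627, 1484 and 1386 in WT at E15.5 and at 890, 430 and 332 at P5. In labelled cKO it went from 1224, 1381 and 1545 to 738, 246 and 334, and in both genotypes the highest P5 library was replicate 1. The log2 fold change was -1.57 ± 0.40 SE in WT (adjusted p = 0.011) and -1.81 ± 0.40 SE in labelled cKO (adjusted p = 0.00467). Adam33 stood at 530, 486 and 493 in WT at E15.5 and at 262, 174 and 92.3 at P5, 2.86-fold lower (-1.63 ± 0.30 SE, adjusted p = 0.00195). With the label cKO it went from 521, 507 and 524 to 257, 326 and 216 (-0.97 ± 0.30 SE, adjusted p = 0.0238).

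The sheddases Adam10 and Adam17 were called in neither genotype. Adam10 (ENSMUSG00000054693, chromosome 9, 70678997 to 70780229) stood at 2298, 1982 and 1965 in WT at E15.5 and at 2364, 2337 and 1555 at P5 (log2 fold change -0.02 ± 0.16 SE, adjusted p = 0.935). In labelled cKO Adam10 went from 2105, 1890.1 and 2013 to 2036, 1714 and 2100.4 (-0.04 ± 0.16 SE, adjusted p = 0.846). Adam17, which releases tumour necrosis factor and ligands of the epidermal growth factor receptor, stood at 698, 648 and 658 in WT at E15.5 and at 931, 757 and 508 at P5 (0.09 ± 0.20 SE, adjusted p = 0.741). In labelled cKO Adam17 went from 658, 672 and 714 to 859.8, 626 and 671 (0.06 ± 0.20 SE, adjusted p = 0.808). The libraries of both genes overlapped between the ages. Adam17 shares 311 exon bases with Iah1 on the other strand.

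Of the ADAMs without a working site, Adam7 and Adam23 rose in both genotypes. Adam7 (ENSMUSG00000022056, chromosome 14, 68497336 to 68533741), best known from the epididymis, stood at 102, 79.1 and 64.0 in WT at E15.5 and at 607, 762 and 228 at P5. In labelled cKO it stood at 52.8, 50 and 50 at E15.5 and at 717, 791 and 1151 at P5. The ages did not overlap in either genotype, and the gene moved from near the floor of the table to above its median in all P5 libraries but WT replicate 3. The mean was 6.52-fold higher at P5 in WT (log2 fold change 2.54 ± 0.38 SE, adjusted p = 0.00061) and 17.4-fold higher in labelled cKO (4.06 ± 0.38 SE, adjusted p = 3.5e-05). Adam23, a neuronal surface protein that binds LGI1, stood at 195, 189 and 169 in WT at E15.5 and at 528, 499 and 431 at P5. In labelled cKO Adam23 went from 162, 241 and 179 to 462, 520.3 and 549. The ages did not overlap, and its log2 fold change was 1.39 ± 0.16 SE in WT (adjusted p = 0.000143) and 1.41 ± 0.16 SE in labelled cKO (adjusted p = 0.000109). Adam11 and Adam22 were not called.

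ADAMTS proteases that cut aggrecan and versican were lower at P5 in all 7 cases in both genotypes, as fitted values, but only Adamts1 and Adamts15 passed the test. Over all 13523 genes, 7433 in WT and 7462 in labelled cKO also had a fitted value below 0. The values of the class nearest to none were -0.15 ± 0.34 SE in WT (Adamts20) and -0.14 ± 0.28 SE in labelled cKO (Adamts5). Adamts15 (ENSMUSG00000033453, chromosome 9, 30899155 to 30922452) stood at 1182, 981 and 1093 in WT at E15.5 and at 374, 207 and 92.4 at P5. The labelled cKO values went from 969, 842 and 1256 to 389, 97.3 and 107. All P5 libraries were below all E15.5 libraries, with replicate 1 the highest of each P5 group. The mean fell 4.84-fold in WT (log2 fold change -2.48 ± 0.55 SE, adjusted p = 0.0052) and 5.17-fold in labelled cKO (-2.65 ± 0.55 SE, adjusted p = 0.00312). Adamts1 stood at 1480, 1101 and 1394 in WT at E15.5 and at 960.3, 543 and 405 at P5 (-1.14 ± 0.41 SE, adjusted p = 0.0494). In labelled cKO it went from 1259, 1028 and 1460 to 703, 203 and 406 (-1.67 ± 0.41 SE, adjusted p = 0.00795). The WT call was lost under 10 alternatives, among them no filter on low values (adjusted p = 0.0600), leaving out any E15.5 library, and leaving out P5 WT replicate 2 or 3 or P5 replicate 3 labelled cKO. Adamts9, another versican-cutting enzyme, stood at 1072, 949.8 and 1062 in WT at E15.5 and at 1020.4, 627 and 368 at P5. The labelled cKO libraries went from 1030, 963 and 1080 to 944, 339.6 and 459. Replicate 1 at P5 lay near the E15.5 values in both genotypes. Its log2 fold change was -0.73 ± 0.38 SE in WT (adjusted p = 0.156) and -0.95 ± 0.38 SE in labelled cKO (adjusted p = 0.0661). Adamts9 shares 1381 exon bases with A730049H05Rik on the other strand.

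Of the 3 procollagen N-proteinases, Adamts3 fell in both genotypes, from 101 ± 17.3 to 52.6 ± 4.50 in WT (SD, n = 3), and Adamts2 and Adamts14 were not called. Among the other 8 ADAMTS genes, Adamts6, Adamts7, Adamts18 and Adamts19 fell in both genotypes. Adamts18 (ENSMUSG00000053399, chromosome 8, 113697126 to 113848738), mutations of which cause eye malformations, stood at 258, 229.6 and 203 in WT at E15.5 and at 50, 50 and 131 at P5. The labelled cKO values went from 251, 217 and 253 to 50, 63.1 and 50. It thus reached the floor in 4 of the 6 P5 libraries, with WT replicate 3 the highest. The log2 fold change was -1.72 ± 0.32 SE in WT (adjusted p = 0.00191) and -2.13 ± 0.32 SE in labelled cKO (adjusted p = 0.000461). Adamts19 stood at 154, 159.8 and 105 in WT at E15.5 and at the floor in all 3 WT libraries at P5, at least 2.79-fold lower (adjusted p = 0.000156). In labelled cKO it went from 115, 112 and 137 to 58.0, 50 and 50 (-1.19 ± 0.17 SE, adjusted p = 0.000388). Adamts12, which cuts cartilage oligomeric matrix protein, stood at 201, 353 and 435 at E15.5 and at 202, 50 and 50 at P5 in labelled cKO. These libraries overlap, since P5 replicate 1 is above E15.5 replicate 1. Its log2 fold change was -1.96 ± 0.66 SE (adjusted p = 0.0339), and the call was lost without any 1 of E15.5 replicates 2 and 3 and P5 replicates 2 and 3 (adjusted p = 0.0907 to 0.121). In WT its log2 fold change of -1.66 ± 0.66 SE was not called (adjusted p = 0.0706).

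The P5 libraries of a genotype differed more for these genes than for most. The median SD of the log2 value over 3 libraries was 0.586 for members and 0.317 for all genes in WT at P5, and 0.566 and 0.232 in labelled cKO, against 0.154 and 0.105 in WT at E15.5. At E15.5, WT replicate 1 was highest for 35 of 48 members (72.9%, against 32.1% of all genes). Labelled cKO replicate 3 was highest there for 34 (70.8%, against 35.7%). Replicate 1 was the highest of both P5 groups for 28 of 48 members (58.3%), among them Mmp2, Mmp14, Timp2, Timp3, Adamts15 and Adam19, and for 25.4% of all genes. The mean log2 value of the 19 mesenchyme, pericyte and smooth muscle markers was also highest in replicate 1, at 12.26, 11.86 and 11.31 in the P5 WT libraries and 12.34, 11.38 and 11.48 in those labelled cKO, against 11.98 to 12.19 in WT at E15.5. Summed, these markers reached 504411 to 665575 in WT and 308172 to 688089 in labelled cKO at P5. Replicate 1 of both P5 groups was not highest for the mesenchyme list alone. It also led for endothelium (11.26 in WT, 10.96 in labelled cKO), macrophages and microglia (8.73 and 8.61) and skeletal muscle (11.24 and 11.42). For the RPE, photoreceptor, other retinal and lens lists it did not lead in either group. A further 4 members, Adam11, Adam22, Adamts18 and Mmp24, were highest in WT replicate 3 and labelled cKO replicate 2 (8.33% of members and 23.1% of all genes), the libraries of highest photoreceptor signal. With the mesenchyme marker level as a term in the model, a setting added after seeing the data, the rises of Timp2 (log2 fold change 0.94 in WT and 1.09 in labelled cKO) and of Mmp14 (0.54 and 0.49) passed the test, with adjusted p = 0.000507, 0.000223, 0.00164 and 0.00322 in that order. In each genotype, 4 of 22 alternatives called Timp2 and 1 called Mmp14. The value of Mmp14 ran from -0.14 to 0.54 in WT and from -0.35 to 0.49 in labelled cKO. Another fit chosen after seeing the data left out the P5 library of highest mesenchyme signal in each genotype. There limma called Mmp2 lower in WT (-0.79, adjusted p = 0.0227) and in labelled cKO (-0.87, adjusted p = 0.0118). Whether other cells account for the members' values was not tested.

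**Figure D2:**
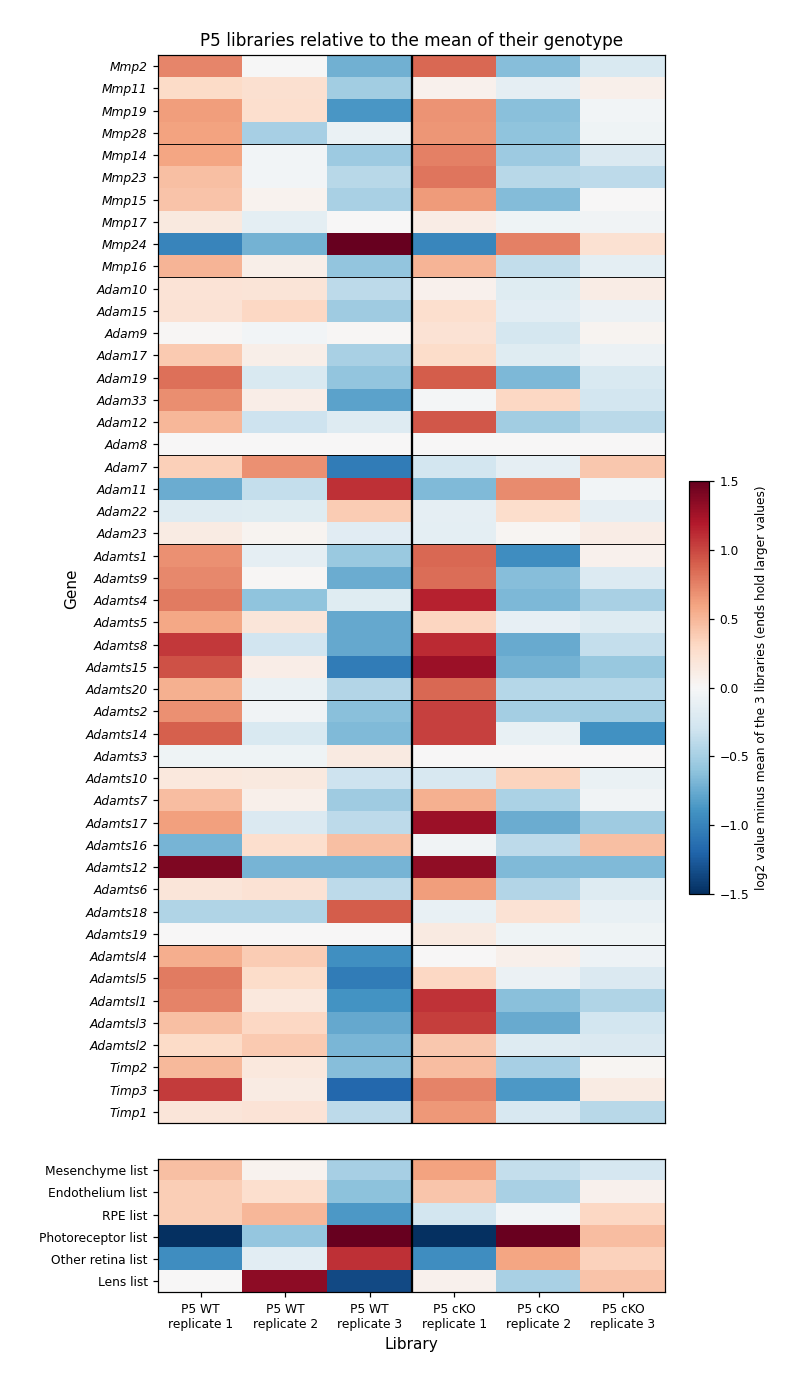
Each member's log2 value in the 3 P5 libraries of a genotype, as the difference from the mean of those libraries (colour scale; values beyond its ends are drawn at the ends), with genes down the side, libraries along the bottom, and the mean log2 value of 6 marker lists treated the same way in the lower panel. Most members are above their mean in replicate 1 of both genotypes, and Adam11, Adam22, Adamts18 and Mmp24 in WT replicate 3 and labelled cKO replicate 2.

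Between genotypes at E15.5, no member was called by limma (0 of 48, against 0.00739% of all genes), and none had an unadjusted p under 0.05, which 0.362% of all genes had. The median log2 fold change of the members was -0.01, and the values ran from -0.65 to 0.28. In 3 members the libraries did not overlap (6.25%, against 5.1% of all genes): Adam7 and Adam22 were lower and Adamts10 higher in labelled cKO, with an exact permutation p of 0.1 each. Adam7, with the smallest p of the members, stood at 102, 79.1 and 64.0 in WT and at 52.8, 50 and 50 in labelled cKO, a log2 fold change of -0.65 ± 0.38 SE (adjusted p = 1). It was near the floor in both groups. Adamts16 followed with 93.8, 110.3 and 84.1 in WT and 69.3, 62.8 and 97.1 in labelled cKO, where only replicate 3 lay in the WT range. Adamts3 stood at 121, 93.8 and 89.4 in WT and at 75, 68.7 and 133 in labelled cKO, and Adamts20 at 67.4, 85.2 and 74.5 and at 86.7, 102 and 83.8. Adamts16, Adamts19, Adamts3 and Adamts20 had log2 fold changes of -0.34 ± 0.31, -0.18 ± 0.17, -0.19 ± 0.23 and 0.26 ± 0.34 (SE) and an adjusted p of 1 each. For abundant members the log2 fold change was 0.05 ± 0.39 for Mmp2, 0.01 ± 0.34 for Mmp14, -0.03 ± 0.30 for Timp2, 0.07 ± 0.51 for Timp3 and -0.05 ± 0.16 for Adam10 (SE). These SEs rest on 1 spread per gene over all 12 libraries, so the wider spread at P5 enters them. SEs at P5 in turn hold the narrower spread at E15.5. For Mmp2 the SD of the log2 value was 0.18 in each E15.5 group, and 0.72 in WT and 0.77 in labelled cKO at P5. In the 6 E15.5 libraries alone, the SE of Adam10 was 0.079 and the count of called members stayed at 0.

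At P5, 1 of 48 members differed between genotypes: Mmp17 was lower in the libraries labelled cKO (0.0444% of all genes were called lower and 0.244% either way). Mmp17 (ENSMUSG00000029436, chromosome 5, 129584169 to 129611099) stood at 246, 199.9 and 222 in WT and at 127, 113 and 114 in labelled cKO, after 86.3, 93.7 and 90.4 in WT and 73.9, 88.4 and 101.4 in labelled cKO at E15.5. All WT libraries were above all labelled cKO libraries at P5, with no overlap, while at E15.5 the WT libraries lay within the range of the others. The mean was 222 ± 22.9 in WT and 118 ± 8.0 in labelled cKO (SD, n = 3), 1.88-fold lower, with a log2 fold change of -0.90 ± 0.15 SE (adjusted p = 0.0411) and an exact permutation p of 0.1. Per kilobase of exon, Mmp17 was the 24th member in WT at P5 and the 38th in labelled cKO. Its interaction of genotype and age was -0.86 ± 0.21 SE and was not called (adjusted p = 0.751).

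The call on Mmp17 depended on the libraries in the fit. With the 6 P5 libraries alone the log2 fold change was the same and the adjusted p 0.854, and it was 0.131 with a replicate block, 0.192 with a term for lens markers and 0.222 with library weights. Leaving out P5 WT replicate 1 ended the call (adjusted p = 0.0967), as did leaving out P5 replicate 2 (0.179) or replicate 3 (0.22) labelled cKO, or any 1 of the E15.5 libraries (0.0599 to 0.099). The log2 fold change of Mmp17 stayed between -0.98 and -0.69 over all alternatives that tested it. The mean log2 value of the 16 lens markers in the table was 7.45, 8.78 and 6.08 in the P5 WT libraries and 8.97, 8.42 and 9.33 in those labelled cKO, and its part in the result was not tested beyond that term.

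**Figure D3:**
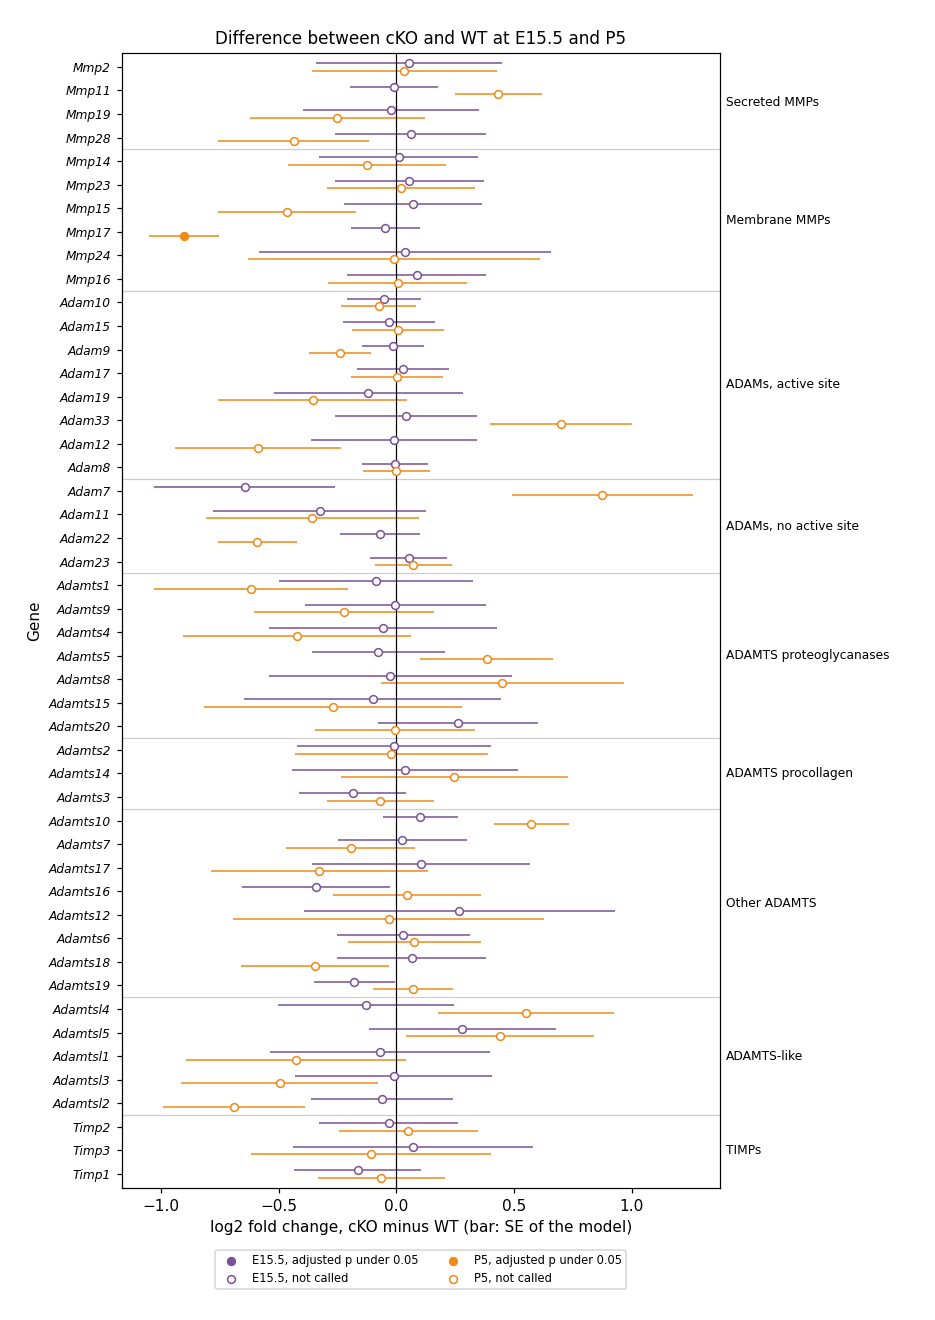
Log2 fold change between labelled cKO and WT (horizontal axis) of the 48 tested members at E15.5 and at P5, grouped by role; points are the limma estimates, filled where the adjusted p was under 0.05, and bars are the SE of the model. Mmp17 at P5, at -0.90, is the only filled point, and the P5 values spread more widely than those at E15.5.

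A further 6 members had an unadjusted p under 0.05 at P5 and were not called, so that 14.6% of members and 7.68% of all genes passed that mark. The libraries of 4 members did not overlap (8.33%, against 6.18% of all genes): Mmp17, Adam22, Adamts10 and Mmp11. Adamts10, which acts on fibrillin microfibrils and is mutated in Weill-Marchesani syndrome, stood at 2362, 2355 and 1713 in WT and at 2666, 3984 and 2954 in labelled cKO. Its log2 fold change was 0.57 ± 0.16 SE (adjusted p = 0.325). Adamts10 rose with age in labelled cKO (0.73 ± 0.16 SE, adjusted p = 0.00446) and was not called in WT (0.25 ± 0.16 SE, adjusted p = 0.235), and the interaction of 0.47 ± 0.23 SE was not called (adjusted p = 1). Adam22, the neuronal receptor of LGI1, stood at 338, 342 and 503 in WT and at 234, 308 and 234 in labelled cKO, with a log2 fold change of -0.59 ± 0.17 SE (adjusted p = 0.34). WT replicate 3 and labelled cKO replicate 2, the highest of each group, are those of highest photoreceptor signal. With the photoreceptor marker level as a term, Adam22 was called lower (-0.61, adjusted p = 0.022), as was Mmp17. Adam22 was called in this 1 of 24 alternatives only. With the term, the calls over all genes went from 33 to 203.

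Mmp11 stood at 508, 492 and 291 in WT and at 588, 515 and 593 in labelled cKO at P5 (log2 fold change 0.43 ± 0.19 SE, adjusted p = 0.627). Adam33 stood at 262, 174 and 92.3 in WT and at 257, 326 and 216 in labelled cKO (0.70 ± 0.30 SE, adjusted p = 0.627), and these overlap. For both genes WT replicate 3 was the lowest of the P5 libraries. Adam7 stood at 607, 762 and 228 in WT and at 717, 791 and 1151 in labelled cKO (0.88 ± 0.38 SE, adjusted p = 0.638). Its interaction, 1.52 ± 0.54 SE, was the largest of the members in size and was not called (adjusted p = 1). Adamtsl2, mutated in geleophysic dysplasia, had a log2 fold change of -0.69 ± 0.30 SE (adjusted p = 0.638). Of the inhibitors at P5, Timp1 had a log2 fold change of -0.07 ± 0.27, Timp2 of 0.05 ± 0.30 and Timp3 of -0.11 ± 0.51 (SE). Adam10, Adam17, Mmp2, Mmp14, Adamts1 and Adamts9 had values from -0.62 to 0.03 with SEs of 0.16 to 0.41. No member was called for the interaction (0 of 48 by limma, against 0.0592% of all genes), and 2 members, Mmp17 and Adam7, had an unadjusted p under 0.05, against 2.65% of all genes.

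**Figure D4:**
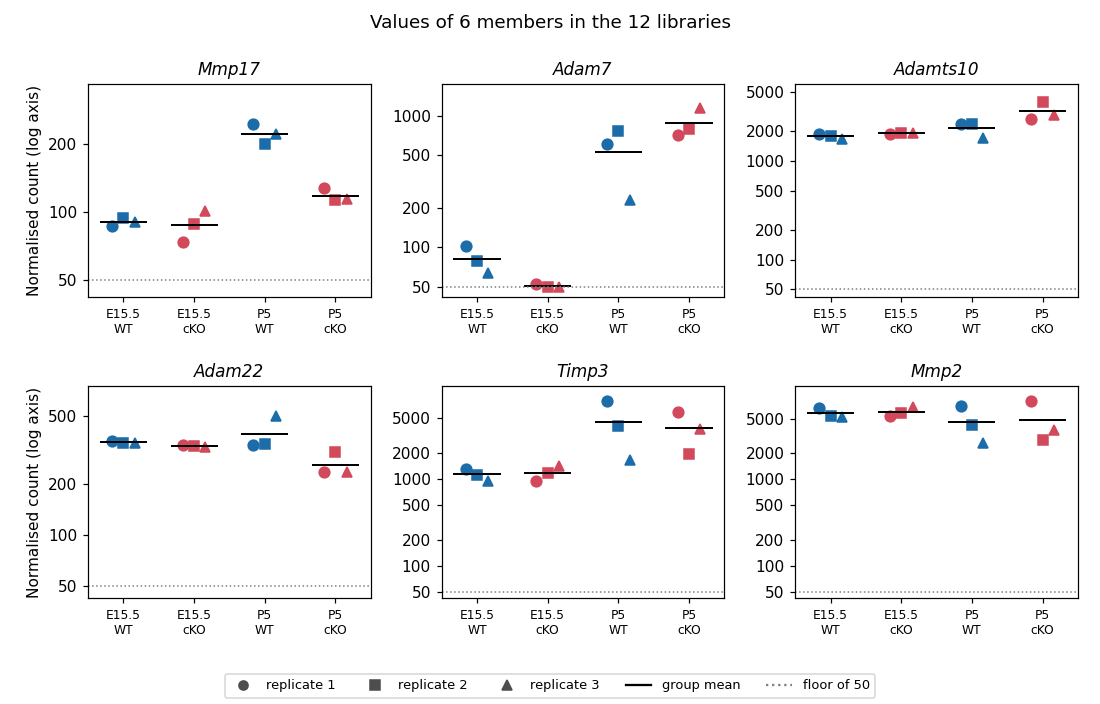
Normalised count (vertical axis, log scale) of 6 members in each of the 12 libraries; markers give the replicate number, lines the group mean and the dotted line the floor of 50. The Mmp17 libraries of the genotypes are apart at P5 and mixed at E15.5, Adam7 is higher in every P5 library than in any E15.5 library, and the P5 libraries of Timp3 and Mmp2 spread widely within each genotype.

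Other genes of the pathway were counted by list. At most 4 called genes per list and genotype are named, largest change first. A gene named for a single genotype may therefore also be called in the other. No gene of these lists was called for the interaction of genotype and age. Of 44 tested activators, regulators and partners, 19 rose and 3 fell in WT, and 20 rose and 4 fell in labelled cKO, with a median log2 fold change of 0.58 and 0.55, against -0.07 and -0.08 over all genes. These are 50% and 54.5% of the list, against 38.2% and 43.7% of all genes. The serine protease Htra1 rose (2.51 ± 0.26 SE in WT, 1.98 ± 0.26 SE in labelled cKO), as did Tspan15 (2.11 ± 0.28 SE in WT), a tetraspanin that binds ADAM10, and Tspan17 (1.64 ± 0.21 SE in WT), another of that group. In labelled cKO the enhancer of procollagen processing Pcolce2 (2.86 ± 0.31 SE) and the broad protease inhibitor A2m (2.09 ± 0.47 SE) rose. Thsd4, the ADAMTS-like protein of microfibrils, fell in both genotypes (-2.06 ± 0.46 SE and -2.57 ± 0.46 SE).

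Of 25 tested matrix substrates, 5 rose and 5 fell in WT, and 4 rose and 5 fell in labelled cKO (median log2 fold change 0.29 and 0.20). These are 40% and 36% of the list, near the 38.2% and 43.7% of all genes. Aggrecan and versican, proteoglycans that ADAMTS proteases cut, moved apart. Aggrecan (Acan) rose by 3.29 ± 0.47 SE in WT and 2.48 ± 0.47 SE in labelled cKO, while versican (Vcan) had values of -2.60 ± 0.37 SE and -2.89 ± 0.37 SE. Fibrillin-2 (Fbn2, -2.02 ± 0.40 SE and -2.30 ± 0.40 SE) and fibronectin (Fn1, -1.91 ± 0.41 SE and -1.95 ± 0.41 SE) fell. Of 29 tested transmembrane proteins that ADAMs shed, 9 rose and 7 fell in WT, and 3 rose and 5 fell in labelled cKO (median 0.35 and 0.21). These are 55.2% and 27.6% of the list, against the same 38.2% and 43.7% of all genes. Here the adhesion molecule Icam1 rose (2.10 ± 0.29 SE in WT and 2.08 ± 0.29 SE in labelled cKO), the chemokine Cx3cl1 rose in WT (1.68 ± 0.29 SE), and Sdc1 (-1.82 ± 0.40 SE and -1.73 ± 0.40 SE) and Cdh1 (-1.66 ± 0.51 SE and -2.03 ± 0.51 SE) fell. Epha3 fell in labelled cKO (-2.46 ± 0.22 SE). All of these changes had an adjusted p under 0.05 by limma. Between genotypes, none of the 3 lists held a called gene at either age, and 0 genes at E15.5 and 3, 0 and 5 genes at P5, in the order of the lists, had an unadjusted p under 0.05. At P5 these are 6.82% of the 44, none of the 25 and 17.2% of the 29, against 7.68% of all genes.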

How the data were processed

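The deposited values are a signal: HTSeq gene counts after quantile normalisation and a floor of 50 by the authors, per the labels' file description. All 12 columns were checked to hold the same sorted values. The aligner was TopHat2 2.0.10 with mm10, per the submitters' processing notes. Neither the annotation release nor the strand setting is given in the sources used here. Libraries were assigned by their titles, where kd marks cKO.

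Genes exceeding the floor in 3 or more libraries were tested on log2(value + 1) with limma 3.58.1 in R 4.3.3 (1 mean per group, moderated variances with trend, two-sided), adjusted over all genes by Benjamini-Hochberg and called under 0.05. Fold changes of low genes are understated on this scale. The fit was tested on simulated data. Positions and exon lengths come from GENCODE M21, promoters from RefSeq. Members and gene lists were chosen with earlier results of these data known. Values in every library were given for members called between genotypes, the 5 of smallest p in each genotype comparison, the 5 largest called rises and falls with age, and 12 fixed genes where present. Members with low values and no such rank are given by counts. Alternatives covered the pseudocount, low-value filters, a replicate block, library weights, left-out libraries, smaller fits and marker terms.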

Additional observations from a re-analysis of the deposited data

How the results depend on the processing

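Counts of called members were recomputed under 25 alternatives. At E15.5 between genotypes and for the interaction the count was 0 under every alternative run. Between genotypes at P5 the count of 1 became 0 with a filter of at least 6 libraries above the floor (Mmp17 adjusted p = 0.0512), with a mean of at least 4 times the floor (Mmp17 is then not tested), with library weights, in the 6 P5 libraries alone, with a term for lens markers, and in both fits chosen after seeing the data that left out the P5 libraries of highest photoreceptor or of highest mesenchyme signal. It became 2 with a term for photoreceptor markers, where 203 of all genes were called against 33 in the main fit. It lay between 0 and 1 when libraries were left out one at a time. With age in WT, the count of 23 became 15 with the mean filter, which tests 32 members, and 39 with library weights, and lay between 19 and 27 over the left-out libraries. Over all genes, 3888 of 9566 were called with the mean filter and 9606 of 13523 with library weights, against 5171 in the main fit. In labelled cKO, the count of 24 became 17 with the mean filter (4446 of 9566 genes) and lay between 19 and 29 over the left-out libraries. With the mesenchyme term, chosen after seeing the data, the counts with age were 31 in WT and 35 in labelled cKO, against 6925 and 7401 of 13523 genes. Of single values, 1842 kept direction and call, 53 lost a call, 26 gained one, 137 uncalled values changed sign and 0 called values reversed.

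Whether the replicate numbers pair the samples could not be settled from 3 libraries per group. After removal of the group means, same-numbered WT and labelled cKO libraries correlated at 0.783, -0.297 and 0.185 at P5. WT replicate 3 and labelled cKO replicate 2 correlated at 0.706. With a replicate block the count was 0 between genotypes at P5, 23 with age in WT and 25 in labelled cKO. Depth is unknown, so no counting error could be given, and members near the floor of 50 have understated changes.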
